A study of Danio rerio with 18 samples.

Results

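Secretory calcium-binding phosphoproteins (SCPPs) are a family of secreted, acidic or proline- and glutamine-rich proteins that arose by gene duplication and that bind calcium in the matrix of mineralised tissues. In mammals the family includes enamelin and ameloblastin, which are laid down by the cells that form tooth enamel, and osteopontin, which is made in bone and by macrophages. In teleost fish the family is found in teeth and in the skeleton, and several members, named scpp with a number, have no mammalian counterpart. The bony rays of the zebrafish caudal fin regrow after amputation through wound closure, formation of a blastema and new bone deposition under a wound epidermis.

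The genes were chosen by name only, as every gene ID of the deposited table whose symbol was enam, ambn or spp1 or began with scpp and a digit, and 8 of 32520 IDs met this rule. They were enam (ENSDARG00000092730), ambn (ENSDARG00000075598), scpp5 (ENSDARG00000078622), scpp7 (ENSDARG00000074132), scpp1 (ENSDARG00000090416), spp1 (ENSDARG00000044276), scpp8 (ENSDARG00000093124) and scpp9 (ENSDARG00000087178). The family was put forward with the values of these same libraries known, so the calls below describe these libraries and are not independent evidence. For the rise of enam, scpp5, scpp7 and ambn at 4 days, the pattern most likely to have drawn attention, changes are given with their intervals and without p-values.

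RNA had been sequenced in bulk from caudal fin clips of fish that lacked s1, a silencer linked to regeneration (KO), and of their WT siblings. Because s1 is a non-coding element, no row of a gene table can check its loss. The KO fish came from the outbred Ekkwill strain, which is also the background of the WT siblings, and all fish were about 4 to 8 months old. Tissue was taken at the time of the cut (0 days post amputation, dpa) and 1 and 4 days after it, in KO and in WT fish, with 3 libraries for each of the 6 groups and a separate pool of 10 fish behind each library. The sources used here do not say how many KO lines were used. The series was designed to find genes that are higher in KO fins at each time.

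Values are normalised read counts, that is, read counts divided by a size factor for each library, and they give levels of 1 gene across libraries but not of 1 gene against another, because transcript length was not taken into account. In bulk tissue, fewer cells of a type and less RNA per cell cannot be told apart. Libraries held 58.6 to 155 M reads on genes (M, 1e6). The 5 most abundant genes took between 2.71% and 90.5% of a library's reads, which left 10.5 to 75.5 M reads for all others, fewest in WT fins at 4 dpa. In 4 libraries this share was under 20%, namely KO replicate 2 and WT replicates 2 and 3 at 0 dpa and KO replicate 1 at 1 dpa. For some of the results that change without these 4 libraries, the values without them are given too. Leaving them out leaves 1 WT library at 0 dpa. Tests were made with limma on log2(value + 1) over 22779 genes, with Benjamini-Hochberg adjustment over all of them, and a gene is called at an adjusted p under 0.05. Of the 8 genes 7 passed the filter, a value of at least 10 in at least 3 libraries, but ambn, scpp5 and scpp7 passed it through their 4 dpa libraries alone, so they were bound to differ over time.

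**Figure D1:**
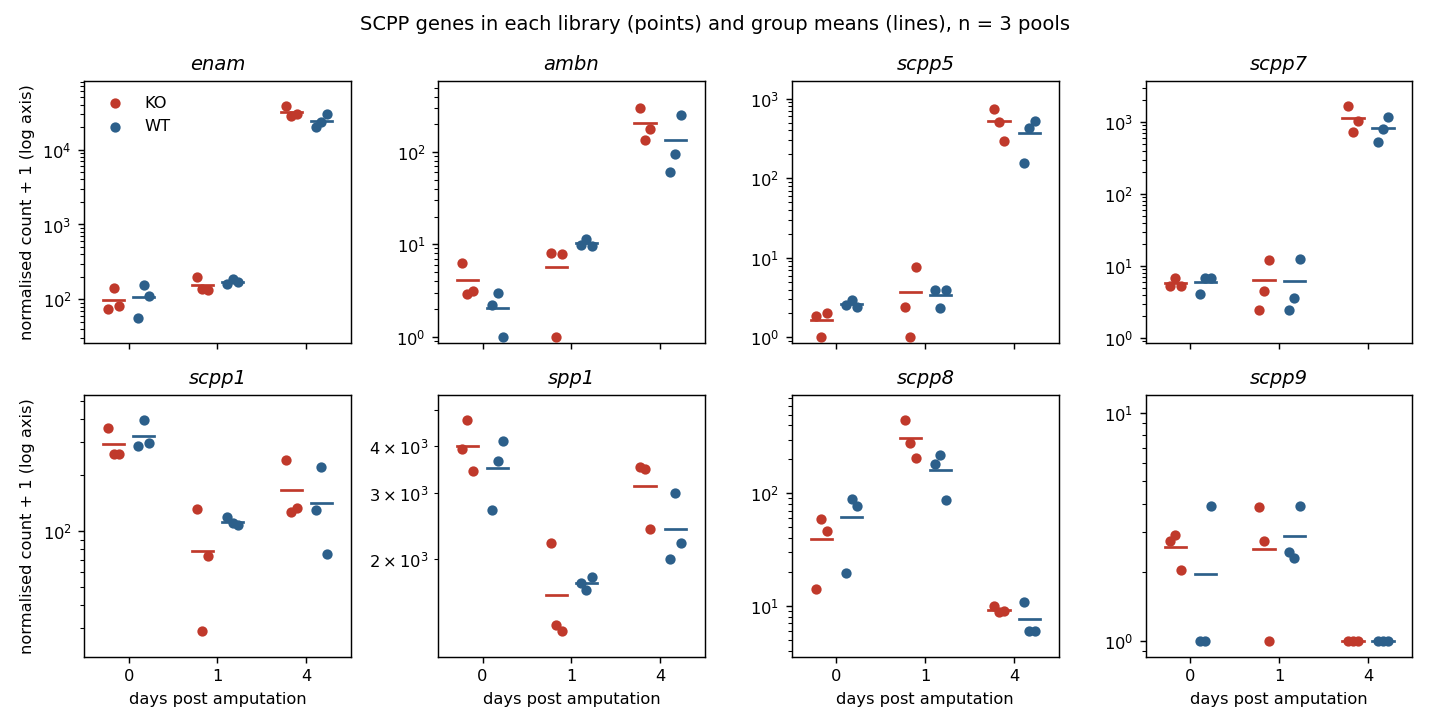
Normalised count plus 1 (log axis) of the 8 SCPP genes at 0, 1 and 4 days post amputation, in KO fins (red, left) and WT fins (blue, right). Each point is 1 library from a pool of 10 fish and each line the mean of 3. The enam, ambn, scpp5 and scpp7 points lie far higher at 4 dpa than before, scpp8 peaks at 1 dpa, and spp1 dips at 1 dpa. The scpp1 points lie lower at 1 and 4 dpa than at 0 dpa.

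The 4 genes enam, scpp5, scpp7 and ambn were near the limit of detection or low in uncut and 1-day fins and high in 4-day regenerates of both genotypes. The gene enam encodes enamelin, in mammals a protein of forming enamel. At 0 dpa enam had 73.0, 139 and 79.4 normalised counts in KO fins, against 55.9, 156 and 110.2 in WT fins. At 1 dpa enam had 197, 136 and 131 in KO fins, against 161, 185 and 168 in WT fins. At 4 dpa enam had 37809.9, 28045 and 30154 in KO fins, against 20174, 23373 and 29821 in WT fins. All 4 dpa libraries stood far above all earlier ones in both genotypes, and KO and WT ranges overlapped at every time. The mean at 4 dpa was 330-fold that at 0 dpa in KO fins and 228-fold in WT fins. On the log2 scale the change was 8.40 in KO fins (95% interval 7.74 to 9.06) and 7.92 in WT fins (95% interval 7.26 to 8.58).

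Between 0 and 1 dpa the change of enam was small beside that at 4 dpa, though all 3 WT libraries at 1 dpa lay above all 3 at 0 dpa, while the KO libraries overlapped. Its log2 change at 1 dpa against 0 dpa was 0.70 in KO fins (SE 0.31, limma adjusted p = 0.104) and 0.79 in WT fins (SE 0.31, limma adjusted p = 0.0552), and neither was called. The 3 low-share libraries at 0 dpa were also the highest for enam within their genotype. Without the 4 low-share libraries both changes were called, at 0.80 in KO fins (limma adjusted p = 0.00251) and 1.60 in WT fins (limma adjusted p = 5.66e-05), the WT value resting on 1 library at 0 dpa that was taken to vary like the other groups. Both were also called when libraries were scaled by the reads outside the 5 most abundant genes, at 1.17 in KO fins (limma adjusted p = 0.00102) and 1.59 in WT fins (limma adjusted p = 5.41e-05), which is 0.74 in KO fins and 0.83 in WT fins above the median of all genes. Altogether 5 of 31 alternatives called the KO change and 8 of 31 the WT change.

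The gene scpp7, a fish member of the family, was a trace before 4 dpa. At 0 dpa scpp7 had 4.35, 5.77 and 4.21 normalised counts in KO fins, against 3.13, 5.90 and 5.76 in WT fins. At 1 dpa scpp7 had 1.43, 3.49 and 11.3 in KO fins, against 1.45, 2.63 and 11.6 in WT fins. At 4 dpa scpp7 had 1694, 723 and 1021 in KO fins, against 519, 797 and 1189.7 in WT fins. The earlier values rest on 2 to 10 reads a library, and the 4 dpa values on 210 to 1516 reads. The mean at 4 dpa was 240.0-fold that at 0 dpa in KO fins and 169.5-fold in WT fins, and the log2 changes were 7.56 in KO fins (95% interval 6.28 to 8.83) and 7.10 in WT fins (95% interval 5.82 to 8.37). Over the alternatives these sizes ran between 6.80 and 8.38 in KO fins and between 6.0 and 7.76 in WT fins.

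The gene scpp5, known from fish teeth, had 0 to 6 reads in every library before 4 dpa, at or close to a detection floor of 3 reads. At 0 dpa scpp5 had 0.870, 0 and 1.05 normalised counts in KO fins, against 1.56, 1.97 and 1.44 in WT fins. At 1 dpa scpp5 had 1.43, 0 and 6.76 in KO fins, against 2.90, 1.31 and 2.90 in WT fins. At 4 dpa scpp5 had 753, 512 and 296 in KO fins, against 153, 426 and 522 in WT fins. The 4 dpa libraries, with 62 to 674 reads, stood above all others. The KO values at 0 dpa all lay below the WT values, but on 0 to 2 reads in KO and 2 to 4 reads in WT libraries. How many of all genes separate in this way between the genotypes was not counted, so nothing is read from it. The log2 change at 4 dpa against 0 dpa was 8.28 in KO fins (95% interval 6.91 to 9.64) and 6.94 in WT fins (95% interval 5.58 to 8.31), and its size depends on the value added before taking logs, with 6.45 in KO fins and 5.63 in WT fins when 5 was added.

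The gene ambn encodes ameloblastin, in mammals an adhesive protein of the enamel matrix. At 0 dpa ambn had 5.22, 1.92 and 2.1 normalised counts in KO fins, against 1.17, 1.97 and 0 in WT fins. At 1 dpa ambn had 7.14, 0 and 6.76 in KO fins, against 8.71, 10.5 and 8.69 in WT fins. At 4 dpa ambn had 296, 135 and 179 in KO fins, against 59.4, 94.7 and 252 in WT fins. The 4 dpa libraries, with 24 to 265 reads, stood above all earlier ones in both genotypes. The log2 change at 4 dpa against 0 dpa was 5.66 in KO fins (95% interval 4.12 to 7.20) and 5.93 in WT fins (95% interval 4.39 to 7.47). These sizes also depend on the value added, and over the alternatives they ran between 4.64 and 6.39 in KO fins and between 4.30 and 7.07 in WT fins.

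In WT fins all 3 ambn values at 1 dpa lay above all 3 at 0 dpa, on 12, 16 and 6 reads against 3, 2 and 0 reads. The log2 change was 2.46 (SE 0.73, limma adjusted p = 0.0139), and the call held in 27 of 31 alternatives. It was not called by limma-voom on whole reads (limma-voom adjusted p = 0.0619). With the share of the 5 most abundant genes as a covariate it was not called either (limma adjusted p = 0.0536). In KO fins the log2 change at 1 dpa was 0.05 (SE 0.73, limma adjusted p = 0.967), 1 of the 3 libraries having no read. All KO libraries at 1 dpa lay below all WT libraries at 1 dpa, on 0 to 10 reads in KO and 6 to 16 reads in WT libraries. How many of all genes separate in this way was not counted, so nothing is read from it. On the log2 scale the difference between the genotypes in the change from 0 to 1 dpa was -2.41 (95% interval -4.59 to -0.24). Its unadjusted limma p was 0.0319 and its limma adjusted p 0.795, so it was not called. The WT call was lost without the 4 low-share libraries, at 2.24 (limma adjusted p = 0.105), and without WT replicate 3 at 0 dpa, the library with no read, at 2.02 (limma adjusted p = 0.0707).

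The acidic members scpp1 and spp1 had less RNA at 1 dpa than in uncut fins. The gene scpp1 is a fish member known from bone and teeth. At 0 dpa scpp1 had 356, 258 and 259 normalised counts in KO fins, against 284, 392.1 and 295 in WT fins. At 1 dpa scpp1 had 129.9, 27.9 and 72.1 in KO fins, against 118, 109 and 107 in WT fins. At 4 dpa scpp1 had 239, 125 and 133 in KO fins, against 129, 219 and 74.2 in WT fins. All libraries at 1 and 4 dpa lay below all those at 0 dpa of the same genotype, while those of 1 and 4 dpa overlapped. Between 0 and 1 dpa scpp1 fell, with a log2 change of -2.15 in KO fins (SE 0.45, limma adjusted p = 0.00177) and -1.52 in WT fins (SE 0.45, limma adjusted p = 0.0137). For 4 dpa against 0 dpa the log2 change was -0.86 in KO fins (limma adjusted p = 0.123) and -1.32 in WT fins (limma adjusted p = 0.0197). In KO fins scpp1 was higher at 4 dpa than at 1 dpa, by 1.29 (limma adjusted p = 0.0413), against 0.20 in WT fins (limma adjusted p = 0.794).

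Both WT calls of scpp1 were lost without the 4 low-share libraries, at -1.35 for 1 dpa (limma adjusted p = 0.0852) and -1.15 for 4 dpa (limma adjusted p = 0.106). The KO call at 4 dpa against 1 dpa held in 17 of 31 alternatives, and without KO replicate 2 at 1 dpa the change was 0.70 (limma adjusted p = 0.197).

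The gene spp1 encodes osteopontin, a ligand of integrins and CD44 that is found in bone matrix. At 0 dpa spp1 had 3924, 4687 and 3424 normalised counts in KO fins, against 2706, 3652 and 4124 in WT fins. At 1 dpa spp1 had 2198, 1332 and 1281 in KO fins, against 1728, 1655 and 1786 in WT fins. At 4 dpa spp1 had 3519.7, 3467 and 2401 in KO fins, against 2001, 2995 and 2211 in WT fins. All libraries at 1 dpa lay below all others of the same genotype. Between 0 and 1 dpa spp1 fell, with a log2 change of -1.36 in KO fins (SE 0.24, limma adjusted p = 4.32e-04) and -1.0 in WT fins (SE 0.24, limma adjusted p = 0.00374). Between 1 and 4 dpa spp1 rose by 0.99 in KO fins (SE 0.24, limma adjusted p = 0.00643). In WT fins the log2 change was 0.46 (limma adjusted p = 0.201). That WT change was called in 3 of 31 alternatives, among them the fit without the 4 low-share libraries, where it was again 0.46. With only the libraries of the groups compared it was also 0.46 (limma adjusted p = 0.0482). From uncut to 4 dpa fins the log2 change was -0.37 in KO fins (limma adjusted p = 0.210) and -0.54 in WT fins (limma adjusted p = 0.0617), and neither was called.

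The changes of scpp1 and spp1 are relative to the other genes. At 1 dpa against 0 dpa both stayed below 0 in both genotypes over the 31 alternatives, and both KO calls held in 31 of 31. At 4 dpa against 0 dpa the direction of spp1, and in KO fins that of scpp1, depended on the scaling. When libraries were scaled by the reads outside the 5 most abundant genes, the median of all genes moved up by 0.46 in KO fins and 0.79 in WT fins at 1 dpa against 0 dpa, and by 0.89 in KO fins and 0.75 in WT fins at 4 dpa against 0 dpa. Under that scaling the 4 dpa change of spp1 was 0.55 in KO fins and 0.23 in WT fins, that of scpp1 in KO fins was 0.05, and the WT calls of both genes at 1 dpa were lost. Set against the median of all genes under the same scaling, spp1 at 4 dpa was at -0.32 in KO fins and -0.49 in WT fins, and scpp1 in KO fins at -0.82.

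The gene scpp8, a fish member of the family, was the one that peaked at 1 dpa. At 0 dpa scpp8 had 13.0, 57.7 and 45.2 normalised counts in KO fins, against 18.8, 88.4 and 75.6 in WT fins. At 1 dpa scpp8 had 445, 281 and 205 in KO fins, against 181, 215 and 86.9 in WT fins. At 4 dpa scpp8 had 8.94, 7.79 and 8.12 in KO fins, against 9.89, 4.98 and 4.95 in WT fins. All 3 times were apart in KO fins, with 1 dpa highest and 4 dpa lowest, and in WT fins 4 dpa was apart from the others while the lowest library at 1 dpa lay just below the highest at 0 dpa. At 1 dpa against 0 dpa scpp8 rose by 3.14 on the log2 scale in KO fins (SE 0.58, limma adjusted p = 7.43e-04) and by 1.56 in WT fins (SE 0.58, limma adjusted p = 0.0428). The WT call held in 21 of 31 alternatives, over which the change ran between 0.87 and 3.18. The lowest value was that without WT replicate 1 at 0 dpa (limma adjusted p = 0.196). The difference between the genotypes in this change was 1.57 (95% interval -0.17 to 3.32, limma adjusted p = 0.795). Over the 31 alternatives that difference ran between 0.30 and 2.26 and was never called.

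By 4 dpa scpp8 was close to the limit of detection, with 6 to 8 reads in KO libraries and 2 to 4 reads in WT libraries. Against 1 dpa it fell, with a log2 change of -5.0 in KO fins (limma adjusted p = 1.45e-05) and -4.38 in WT fins (limma adjusted p = 9.06e-05). Against 0 dpa it also fell, with -1.86 in KO fins (limma adjusted p = 0.0148) and -2.82 in WT fins (limma adjusted p = 8.01e-04). Without the 4 low-share libraries, 2 of them the highest for scpp8 in WT fins at 0 dpa and 1 the highest in KO fins, the 4 dpa change was -1.46 in KO fins (limma adjusted p = 0.0272) and -1.44 in WT fins, the WT one no longer called (limma adjusted p = 0.0923). The KO call held in 26 of 31 alternatives and was lost when libraries were scaled by the reads outside the 5 most abundant genes, at -1.0 (limma adjusted p = 0.0586).

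The summed level of markers of the superficial epidermis, the outer skin layer, was highest at 1 dpa and lowest at 4 dpa, as scpp8 was. It was 80877 to 157678 in KO fins and 76918 to 159575 in WT fins at 0 dpa, 217954 to 280547 in KO fins and 160987 to 203595 in WT fins at 1 dpa, and 48446 to 58555 in KO fins and 52616 to 61311 in WT fins at 4 dpa. Most of the sum at 1 dpa was the single gene krt4, with a mean of 213183 in KO and 151115 in WT fins. The means of cldne, cldni and PPL were lower at 1 dpa than at 0 dpa in both genotypes. All 5 marker IDs were detected in every group. Gene by gene, 1 of 5 was higher and 2 lower at 1 dpa against 0 dpa in KO fins, and 1 higher and 3 lower in WT fins. Of all tested genes 15.4% were higher and 13.9% lower in KO fins, and 19.1% higher and 21.1% lower in WT fins. The part of these markers in the scpp8 values was not tested.

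The gene scpp9, whose interval overlaps that of odam in the RefSeq annotation, had 0 to 4 reads in each library and was not tested. It had 1.74, 1.92 and 1.05 normalised counts in KO fins and 0, 0 and 2.88 in WT fins at 0 dpa, and 2.85, 1.74 and 0 in KO fins and 1.45, 1.31 and 2.90 in WT fins at 1 dpa. It was at 0 in all 6 libraries at 4 dpa, where a floor of 3 reads corresponds to 3.35 to 4.06 normalised counts in KO and 7.42 to 7.47 in WT libraries. Over all genes and libraries 83.2% of values of 1 to 20 reads were even numbers, so reads are not independent fragments. A floor of 3 reads can then rest on fewer than 3 fragments and may not cover counting error. It does not cover the spread between pools.

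**Figure D2:**
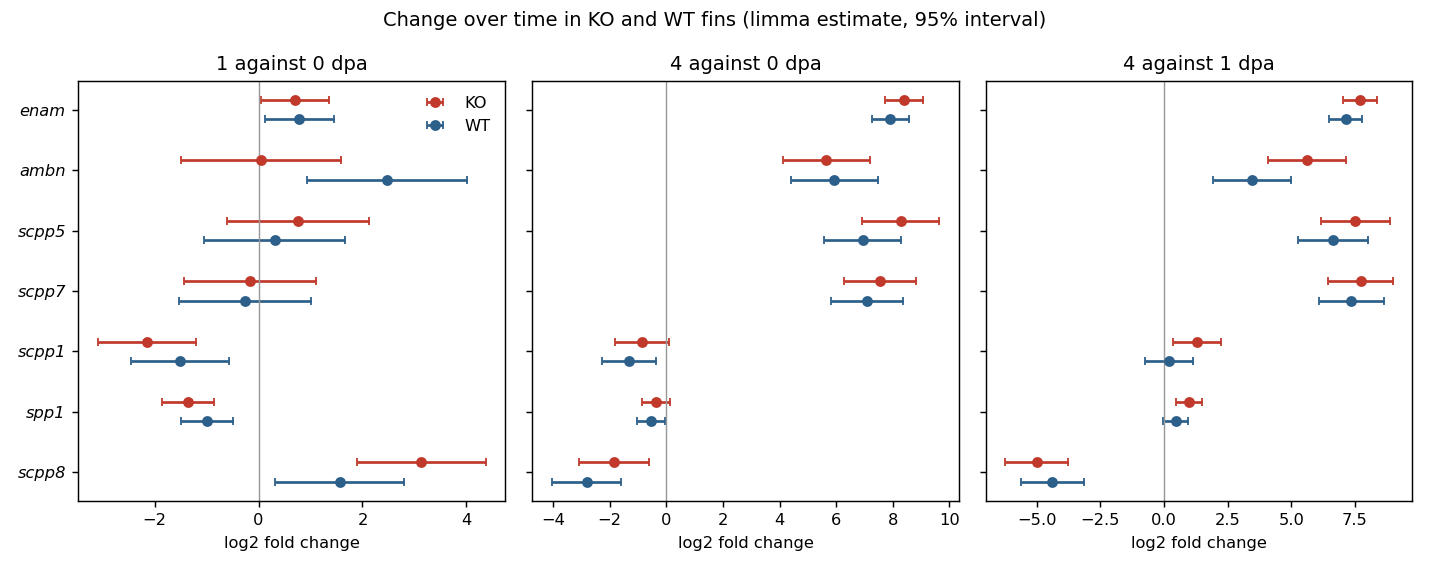
Log2 fold change of the 7 tested SCPP genes for 1 against 0 dpa, 4 against 0 dpa and 4 against 1 dpa, in KO fins (red, upper) and WT fins (blue, lower). Points are limma estimates and bars 95% intervals. In the comparisons that end at 4 dpa, enam, ambn, scpp5 and scpp7 lie right of 0 and scpp8 left of it in both genotypes, and KO and WT intervals overlap throughout.

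Counted over the tested genes, 3 of 7 were called in KO fins at 1 dpa against 0 dpa, scpp8 higher and scpp1 and spp1 lower, where 15.4% of all tested genes were called higher and 13.9% lower. In WT fins 4 of 7 were called, ambn and scpp8 higher and scpp1 and spp1 lower, against 19.1% of all tested genes higher and 21.1% lower. At 4 dpa against 0 dpa 5 of 7 were called in KO fins, 4 higher and 1 lower, with 23.3% of all tested genes higher and 25.7% lower, and 6 of 7 in WT fins, 4 higher and 2 lower, with 25.9% higher and 29.6% lower. At 4 dpa against 1 dpa all 7 were called in KO fins, 6 higher and scpp8 lower, with 11.6% of all tested genes higher and 16.2% lower, and 5 of 7 in WT fins, 4 higher and scpp8 lower, with 7.17% higher and 6.61% lower. Scaling by the reads outside the 5 most abundant genes turned the split of all genes at 1 dpa against 0 dpa to 18.8% higher and 5.21% lower in KO fins and 38.1% higher and 7.63% lower in WT fins, and at 4 dpa against 0 dpa to 45.6% higher and 11.02% lower in KO fins and 41.3% higher and 15.5% lower in WT fins. For 4 dpa against 1 dpa it gave 12.1% higher and 8.20% lower in KO fins and 2.86% higher and 9.32% lower in WT fins. Under that scaling the SCPP counts were 2 higher and 2 lower in KO fins and 3 higher and 0 lower in WT fins at 1 dpa against 0 dpa, and 4 higher and 0 lower in KO fins and 4 higher and 1 lower in WT fins at 4 dpa against 0 dpa. Comparisons that share a time share its libraries, and the filter and the choice of the family bear on these counts, so nothing is read from them.

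The question the series put, which genes differ in fins without the silencer, had no called answer in this family. At 0, 1 and 4 dpa 0 of 7 SCPP genes were called between KO and WT, where 0.101%, 0.00439% and 0.0351% of all tested genes were, and for the average over the times 0 of 7 were called against 0.14% of all. By limma none of the 7 had an unadjusted p under 0.05 in these comparisons, and edgeR and DESeq2 on the recovered whole reads also called 0 of 7 in each. So few genes were called in the whole table that 0 of 7 is near the share of all genes. Nothing about the family is read from it. At 0 and 1 dpa ambn, scpp5 and scpp7 had 0 to 16 reads a library, and at 4 dpa scpp8 had 2 to 8. The intervals were wide for the low genes. At 4 dpa the log2 difference of KO minus WT was 0.40 for enam (95% interval -0.27 to 1.06), 0.58 for scpp5 (-0.78 to 1.94), 0.45 for scpp7 (-0.83 to 1.72) and 0.77 for ambn (-0.77 to 2.31). It was 0.38 for spp1 (-0.12 to 0.88), 0.30 for scpp1 (-0.64 to 1.25) and 0.35 for scpp8 (-0.89 to 1.58). These intervals leave room for changes of more than 2-fold in every gene but spp1.

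At 1 dpa the largest differences were -1.37 for ambn (95% interval -2.91 to 0.17), 0.97 for scpp8 (-0.27 to 2.2) and -0.78 for scpp1 (-1.73 to 0.16). At 0 dpa the values ran between -0.76 for scpp5 (95% interval -2.12 to 0.61) and 1.04 for ambn (-0.49 to 2.58). Averaged over the times, the narrowest interval was that of spp1, 0.15 (-0.14 to 0.44), and that of enam was 0.05 (-0.34 to 0.43). The interaction of genotype with the change over time was called for 0 of 7 genes and 0% of all tested genes by limma in each of the 3 comparisons of times, with 1 of 7 genes, ambn, at an unadjusted p under 0.05 for 1 dpa against 0 dpa and none for the others. For 4 dpa against 0 dpa it was 0.48 for enam (95% interval -0.46 to 1.42) and 1.34 for scpp5 (-0.59 to 3.27).

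At 4 dpa all 7 differences were above 0, but they rest on the same 6 libraries and are not independent of each other. How many of all tested genes lay above 0 was not counted, and their median was 0.01. The scpp8 difference rests on 6 to 8 reads in KO and 2 to 4 reads in WT libraries. Nothing is read from the shared direction. The summed level of the osteoblast markers was higher in KO libraries at 4 dpa, 39067 to 47811 against 31644 to 38642 in WT libraries, without overlap. Most of this sum was a single COL10A1 ID. The means of SP7, RUNX2, runx2b and PANX3 at 4 dpa were 947, 3687, 2446 and 1509 in KO fins and 666, 3189, 2206 and 1211 in WT fins. Gene by gene, 0 of the 5 tested markers were called between KO and WT at 4 dpa. How many of all genes separate in this way was not counted. The part of these markers in the SCPP values was not tested. Reads outside the 5 most abundant genes were 16.4 to 19.7 M in KO and 10.5 to 10.9 M in WT libraries at 4 dpa, and scaling by them moved the median of all genes by 0.27 in the same direction. The scpp1 difference turned to -0.09 without WT replicate 3 at 4 dpa.

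**Figure D3:**
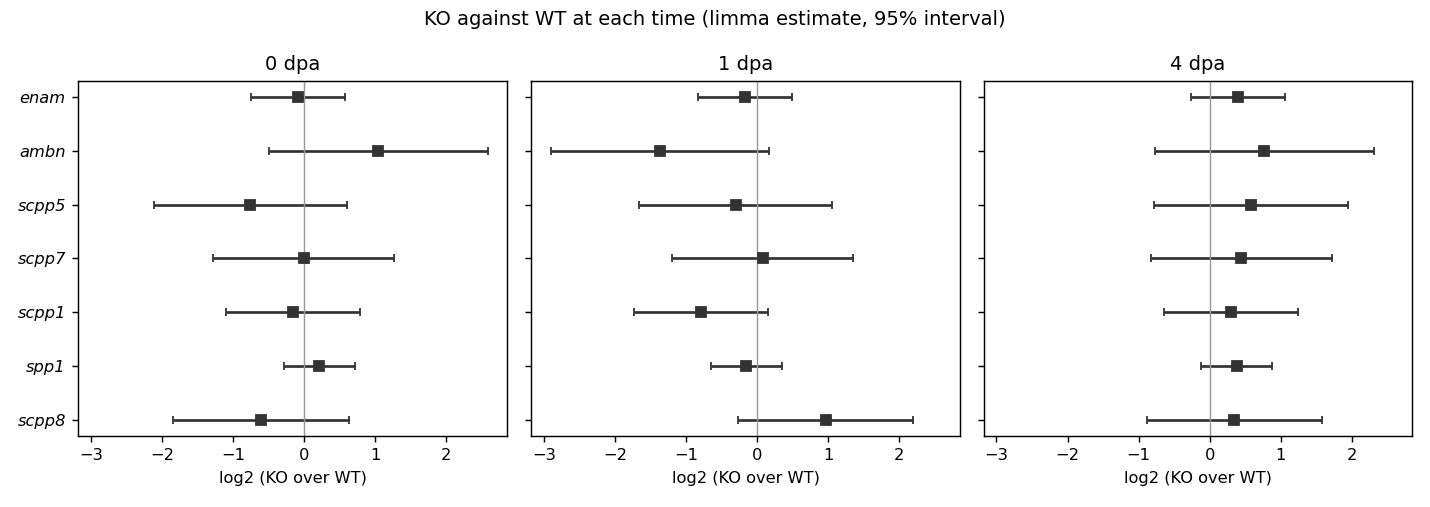
Log2 difference of KO over WT for the 7 tested SCPP genes at 0, 1 and 4 dpa. Squares are limma estimates and bars 95% intervals. Every interval includes 0, with the widest for ambn and the narrowest for spp1.

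Within the 4 dpa groups, enam, scpp7 and ambn were high and low in the same pools. In both genotypes the library highest for enam, KO replicate 1 and WT replicate 3, was also the highest for scpp5, scpp7 and ambn, and WT replicate 1 was the lowest WT library for all 4. On the log2 scale ambn deviated from the mean of its genotype by 0.62, -0.51 and -0.11 in KO replicates 1, 2 and 3 and by -0.91, -0.25 and 1.16 in WT replicates 1, 2 and 3. The deviations of enam were 0.25, -0.18 and -0.07 in KO replicates and -0.26, -0.05 and 0.31 in WT replicates. Over the 6 libraries the deviations correlated at r = 0.98 between enam and ambn and between enam and scpp7, and at r = 0.79 between enam and scpp5. Over all 18 libraries, where ambn, scpp7 and scpp5 had few reads before 4 dpa, these values were 0.23, 0.19 and 0.001. With spp1 and scpp8 the deviations of enam over the 18 libraries correlated at 0.61 and 0.69. The tested osteoblast markers SP7, RUNX2, runx2b, COL10A1 and PANX3, which are transcription factors, a collagen and a channel of the bone-forming cell, deviated between -0.28 and 0.20, a range close to that of enam and narrower than those of ambn, scpp5 and scpp7. WT replicate 1 was also the lowest WT library for all 5 markers. The deviations of COL10A1 correlated with those of enam at r = 0.83 over the 6 libraries, and those of the other 4 markers at between -0.08 and 0.45.

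**Figure D4:**
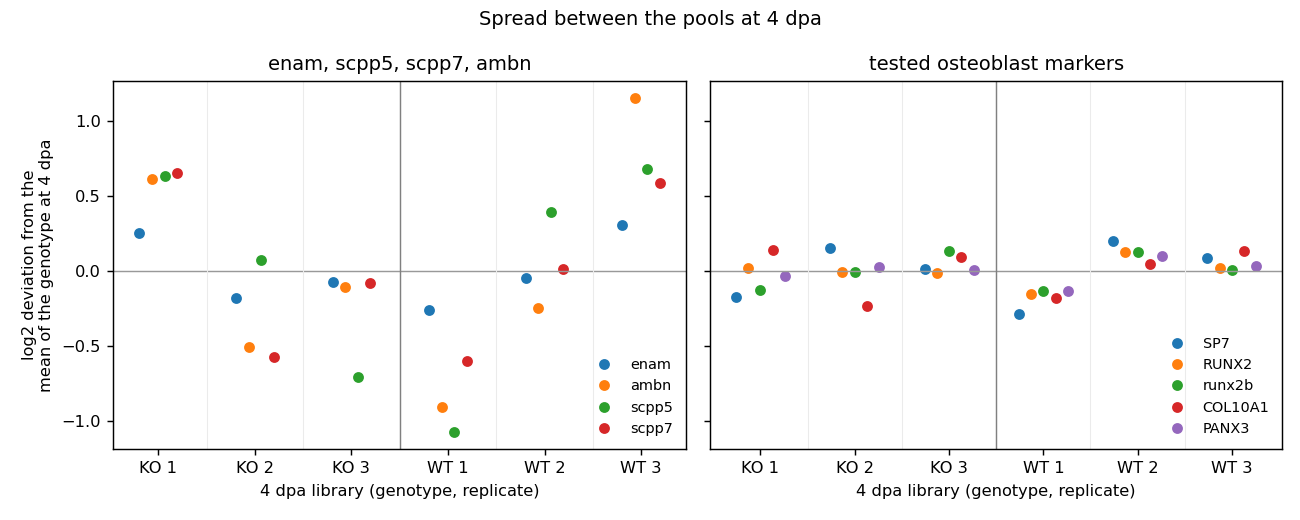
Log2 deviation of each 4 dpa library from the mean of its genotype, KO libraries left and WT libraries right, for enam, ambn, scpp5 and scpp7 (left panel) and for the 5 tested osteoblast markers (right panel). WT replicate 1 lies below 0 and WT replicate 3 above it for all genes of both panels, KO replicate 1 lies above 0 for all 4 genes of the left panel, and the osteoblast markers stay within -0.28 and 0.20.

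The 4 genes that were high at 4 dpa stand next to each other on the chromosome. In the RefSeq annotation of assembly GRCz12tu, which was used for gene order only because the reads were aligned to another build, the protein-coding genes run in the order enam, scpp5, scpp7, ambn, odam, scpp9 and zgc:66472. The gene odam encodes an odontogenic ameloblast-associated protein, and is counted with the SCPP family though its symbol is not one selected here, and its change was not called. Its mean was 22.6 normalised counts in KO and 31.4 in WT fins at 4 dpa and 30.6 in KO and 23.4 in WT fins at 0 dpa, a log2 change of -0.40 in KO (limma adjusted p = 0.701) and 0.36 in WT fins (limma adjusted p = 0.717). For zgc:66472 the change was 0.81 in KO fins (limma adjusted p = 0.00396) and 0.27 in WT fins (limma adjusted p = 0.276). Correlations over the 18 libraries among enam, scpp5, scpp7 and ambn lay between 0.91 and 0.98, points that share the time groups.

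The other genes sit elsewhere. The gene scpp1 lies beside sparcl1, the SPARC-like matrix gene of the kind from which the family is thought to descend, and sparcl1 had a log2 change at 4 dpa against 0 dpa of -0.40 in KO fins (limma adjusted p = 0.509) and -0.99 in WT fins (limma adjusted p = 0.0850). The genes scpp8 and spp1 are direct neighbours, and over the 18 libraries they correlated at r = -0.46, whereas scpp1 and spp1, which are not neighbours, correlated at r = 0.84. The gene parm1, on the far side of scpp8, fell, with -1.16 in KO fins (limma adjusted p = 0.00624) and -1.32 in WT fins (limma adjusted p = 0.00225) at 4 dpa against 0 dpa. On the far side of spp1, sh3bp2 rose by 1.53 in KO and 1.26 in WT fins and vldlr, a lipoprotein receptor with the symbol VLDLR here, by 0.66 in KO and 0.68 in WT fins.

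**Figure D5:**
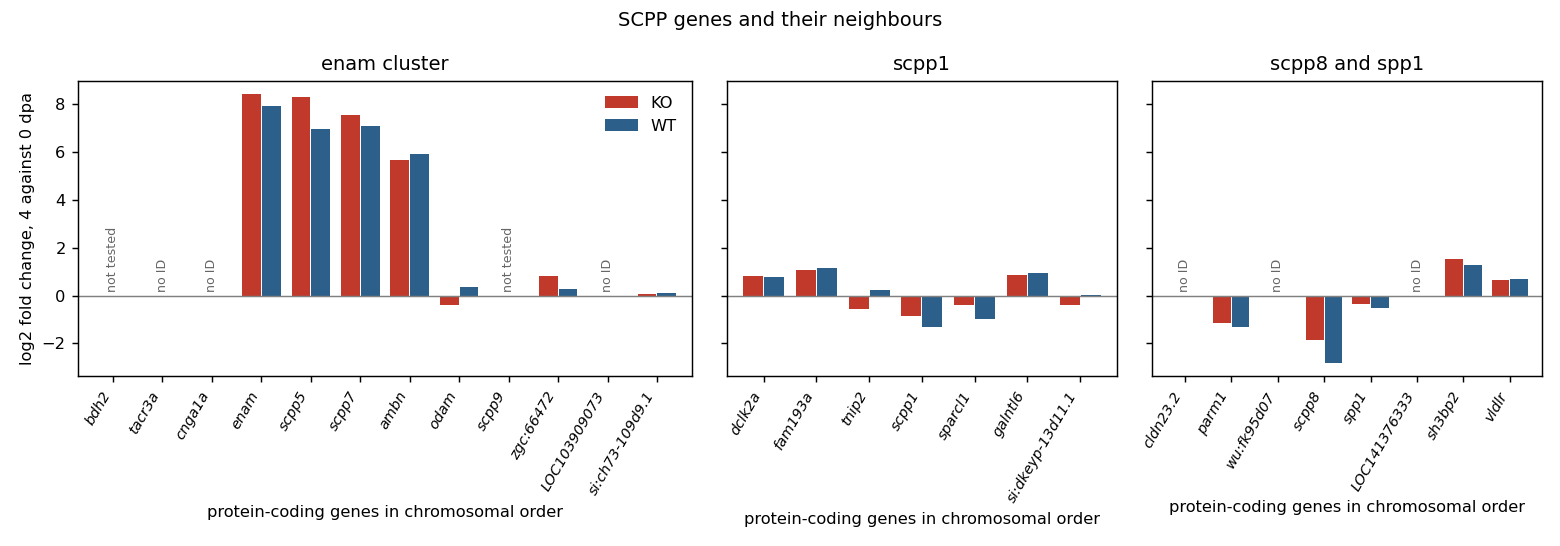
Log2 fold change at 4 against 0 dpa of the SCPP genes and the protein-coding genes around them, in chromosomal order without scale, in KO fins (red, left bar) and WT fins (blue, right bar). Genes without a bar were not tested or had no matching ID. The 4 tall bars are the neighbours enam, scpp5, scpp7 and ambn, and odam beside them lies near 0.

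The genes whose level followed each member most closely over the 18 libraries were sought among tested genes with a descriptive symbol. For enam they were and1 (r = 0.99) and and2 (r = 0.99), the actinodins of the fibrils at the fin edge, and SPON2 (r = 0.99), a spondin of the matrix. For scpp7 they were and2 (r = 0.99), CTNND2 (r = 0.99), a catenin, and and1 (r = 0.98). For scpp5 they were wfikkn2a (r = 0.98), a protease inhibitor domain gene, ROBO3 (r = 0.98), a guidance receptor, and KIRREL3 (r = 0.98), an adhesion molecule. For ambn they were srgap1b (r = 0.96), a GTPase regulator, ROBO3 (r = 0.95) and ITGA9 (r = 0.95), an integrin chain. These values are set by the difference between 4 dpa and the earlier times, which many genes share.

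For spp1 the closest were myo1ca (r = 0.94), a myosin, GAS2 (r = 0.94) and SOST (r = 0.93), the osteocyte inhibitor of bone formation. For scpp1 they were KANK1 (r = 0.90), BGN (r = 0.88), the matrix proteoglycan biglycan, and CCNA1 (r = 0.87), a cyclin. For scpp8 they were ANXA2 (r = 0.98), an annexin, CTH (r = 0.97), an enzyme of cysteine synthesis, and krt4 (r = 0.97), a keratin of the outer skin. Between deviations from group means, r was 0.86 to 0.88 for scpp8 with these 3 genes and 0.52 to 0.74 for enam with its 3.

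Lists of genes around the family showed what else was present in the same libraries. Osteoblast markers were detected except that bglap, ALPL and 1 of the 2 COL10A1 IDs were listed at 0 in every library. Of 33 tested bone matrix and osteoblast genes, 19 were higher and 3 lower at 4 dpa against 0 dpa in KO fins (median log2 0.85). In WT fins 15 were higher and 5 lower (median 0.56). The median of all tested genes was -0.02 in KO and -0.03 in WT fins. Of all tested genes 23.3% were higher and 25.7% lower in KO fins, and 25.9% higher and 29.6% lower in WT fins. At 1 dpa against 0 dpa 6 bone genes were higher and 14 lower in KO fins and 5 higher and 17 lower in WT fins, the direction of scpp1 and spp1. The shares of all tested genes there were 15.4% higher and 13.9% lower in KO fins, and 19.1% higher and 21.1% lower in WT fins. In the bone list PHOSPHO1, a phosphatase that starts mineral formation, rose by 4.65 in KO and 3.61 in WT fins at 4 dpa. COL12A1, a fibril-associated collagen, rose by 3.03 in KO and 3.01 in WT fins. The mineralisation inhibitor mgp fell, with -3.62 in KO and -2.81 in WT fins, and tnfrsf11b, the decoy receptor osteoprotegerin, fell, with -3.51 in KO and -3.41 in WT fins. These changes, and those of every list gene given below with its own log2 change, were called by limma in both genotypes. In WT fins that call, with the largest absolute changes, was the condition for naming a list gene, so it is not a result.

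Of 14 tested genes for extracellular phosphorylation and processing, the kinases and proteases that modify secreted matrix proteins, 8 were higher and 2 lower at 4 dpa against 0 dpa in KO fins and 7 higher and 2 lower in WT fins. In this comparison 23.3% of all tested genes were higher and 25.7% lower in KO fins, and 25.9% higher and 29.6% lower in WT fins. BMP1, a procollagen protease, rose by 1.81 in KO and 2.51 in WT fins, and the collagenases mmp13a and mmp13b rose by 2.99 and 3.16 in KO fins and by 2.97 and 2.79 in WT fins. The gene mmp20a, whose mammalian counterpart cleaves enamel proteins in teeth, went the other way and fell, with -2.69 in KO and -2.16 in WT fins. Of 12 tested genes of the enamel-like list, the tooth epithelium and its patterning, 9 were higher and 1 lower in KO fins and 7 higher and 1 lower in WT fins, the lower one being mmp20a again. DLX2 rose by 2.34 in KO and 1.89 in WT fins, EDAR by 1.19 in KO and 1.38 in WT fins, and msx1a by 3.09 in KO and 2.06 in WT fins on a mean of at most 6.92 normalised counts at 0 dpa. At 1 dpa the msx1a mean was 2.87 in KO and 0.44 in WT fins. With such means msx1a could not pass the filter without its 4 dpa libraries, so it was bound to differ over time.

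Of 15 tested integrins and CD44 genes, the receptors of osteopontin and related proteins, 10 were higher and 3 lower at 4 dpa against 0 dpa in KO fins and 11 higher and 3 lower in WT fins. Of all tested genes 23.3% were higher and 25.7% lower in KO fins, and 25.9% higher and 29.6% lower in WT fins. ITGB1 rose by 2.57 in KO and 2.91 in WT fins, ITGA8 by 1.96 in both, and ITGB3 by 1.61 in KO and 2.11 in WT fins, while cd44a fell, with -2.37 in KO and -2.56 in WT fins. Several IDs carry the symbols ITGB1 and ITGB3, and the values are those of a single ID each. Osteoclast genes, of which 16 were tested, had 8 higher and 0 lower in KO fins and 9 higher and 0 lower in WT fins. Among them ocstamp, needed for osteoclast fusion, was up by 4.58 in KO and 3.75 in WT fins. Its mean at 0 dpa was 2.53 in KO and 4.10 in WT fins. It therefore passed the filter through libraries after the cut and was bound to differ over time. Of 16 tested macrophage genes 4 were higher and 4 lower in KO fins, close to the shares of all tested genes. In WT fins 4 were higher and 6 lower. The summed level of the 3 macrophage markers was 2489 to 3161 in KO and 2281 to 2873 in WT fins at 4 dpa and 779 to 869 in KO and 819 to 888 in WT fins at 0 dpa. Most of this sum at 4 dpa was the single gene csf1ra. Its mean was 2351 in KO and 2191 in WT fins at 4 dpa, and 467 in KO and 365 in WT fins at 0 dpa. Gene by gene, 1 of the 3 markers was called higher and 0 lower in each genotype. The sum of the whole macrophage list of 18 IDs went the other way, with 23085 to 32087 in KO and 33734 to 44278 in WT fins at 4 dpa, 27744 to 56687 in KO and 31369 to 38890 in WT fins at 1 dpa, and 143498 to 248847 in KO and 125795 to 272258 in WT fins at 0 dpa. Most of that list sum was the single gene cd74a. Its mean was 178159 in KO and 176135 in WT fins at 0 dpa, and 19822 in KO and 29208 in WT fins at 4 dpa. Among the called genes of the list csf1ra, a receptor of macrophages and osteoclasts, rose by 2.44 in KO and 2.68 in WT fins at 4 dpa. The antigen presentation genes cd74a and cd74b fell, with -3.16 and -3.02 in KO fins and -2.54 and -3.07 in WT fins. The part of macrophages in the spp1 values was not tested.

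Of 20 tested basal and wound epidermis genes, 10 were higher and 4 lower at 4 dpa against 0 dpa in KO fins and 10 higher and 3 lower in WT fins. The actinodins and2 and and1 led them with 8.50 and 8.11 in KO fins and 8.36 and 8.15 in WT fins. Of all tested genes 23.3% were higher and 25.7% lower in KO fins, and 25.9% higher and 29.6% lower in WT fins. The 3 basal epidermis markers krt5, TP63 and ITGB4 had a median log2 change of -0.64 in KO fins (1 called, higher) and -0.24 in WT fins (0 called), and their sum was 124443 to 156612 in KO and 147349 to 159783 in WT fins at 4 dpa, below the 172685 to 310406 in KO and 214570 to 273969 in WT fins at 0 dpa. Of 12 tested superficial epidermis genes 1 was higher and 5 lower in KO fins and 1 higher and 8 lower in WT fins, with cldne, a claudin, at -2.47 in KO fins and -2.30 in WT fins.

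The list counts also depend on the scaling. With libraries scaled by the reads outside the 5 most abundant genes, the bone list had 26 higher and 2 lower in KO fins and 19 higher and 2 lower in WT fins at 4 dpa against 0 dpa, and at 1 dpa 7 higher and 7 lower in KO fins and 8 higher and 8 lower in WT fins. Its median at 1 dpa was then 0.03 in KO fins and 0.29 in WT fins, which is -0.39 in KO fins and -0.46 in WT fins against the median of all genes. The macrophage list had 8 higher and 4 lower in KO fins and 6 higher and 5 lower in WT fins at 4 dpa, and the basal and wound epidermis list 13 higher and 1 lower in both. For the superficial epidermis 1 was higher and 4 lower in KO fins, with a median of 0.06, and 1 higher and 5 lower in WT fins, with a median of -0.62. The phosphorylation list had 10 higher and 1 lower in KO fins and 9 higher and 1 lower in WT fins, and the osteoclast list 15 higher and 0 lower in both.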

How the data were processed

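Per the labels' protocols, cDNA from total RNA of the fin pools was tagged with Tn5 transposase and sequenced as paired ends. The submitters' processing notes name Trim Galore 0.6.7 and cutadapt 3.5 for trimming, STAR 2.7.10 for alignment and the build danRer11. Neither the counting tool nor its strand setting or annotation is given in the sources used here. The deposited table holds a signal per gene and library that the authors normalised, a read count over a size factor, and all values (100%) were recovered as whole reads to within 0.001. Symbols matched 29201 of 32520 IDs. Genes whose signal reached 10 in 3 or more of the 18 libraries were fitted with limma 3.58.1 (trend, R 4.3.3) on log2(signal + 1), with the 6 group means and 12 residual degrees of freedom, and two-sided p-values were adjusted by Benjamini-Hochberg over 22779 genes. Signal at 5 dominant genes varied between libraries, so other scalings, edgeR 4.0.16 and DESeq2 1.42.0 on whole reads and leaving out libraries were alternatives. The scripts were tested on simulated data.

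The members and lists were chosen with earlier results of these data known. Named were all members, up to 4 called genes of each list with the largest absolute change at 4 against 0 dpa in WT, the 3 genes with a descriptive symbol most correlated with each member, and neighbours in gene order. Of 198 list entries 175 matched, 47 of them by a symbol shared by a family, so copies can share reads. Several IDs carry the symbols COL12A1, BMP1, DLX2, ITGB1 and ITGB3. Values for these are those of the called ID with the largest absolute change in WT fins. Among the most correlated genes, the symbols KIRREL3, KANK1, BGN, GAS2 and CTH are also shared by more than a single tested ID. Each r given for them is that of a single ID. Replicates came from separate pools of fish. Sequence features were not analysed here.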

Additional observations from a re-analysis of the deposited data

How the results depend on the processing

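No SCPP gene was called between genotypes under any of the 31 alternatives. The rise of enam, ambn, scpp5 and scpp7 at 4 dpa kept its direction, which the filter and the choice of the family largely fix. The count of SCPP genes called at 1 against 0 dpa in WT fins was 2 with the share of the 5 most abundant genes as a covariate, against 4 without it; the cause was not tested. With that covariate the scpp8 change at 4 against 0 dpa was -0.37 in KO and -0.59 in WT fins, not called. The share was 79.0% to 90.5% at 4 dpa and 2.71% to 57.9% at 0 dpa, without overlap. The covariate and time therefore cannot be separated in this comparison, and nothing is read from the lost call. Leaving out 1 library at a time gave 3 to 5 called SCPP genes for 1 against 0 dpa in WT fins and 6 to 7 for 4 against 1 dpa in KO fins. The call of scpp8 at 4 against 0 dpa in KO fins was lost without KO replicate 2 (-1.46, limma adjusted p = 0.0754) or 3 (-1.63, limma adjusted p = 0.0579) at 0 dpa. That of scpp1 at 4 against 0 dpa in WT fins was lost without WT replicate 2 at 0 dpa (-1.17) or WT replicate 3 at 4 dpa (-0.93), and its 1 dpa call in WT fins without WT replicate 2 at 0 dpa (-1.37). Without WT replicate 1 at 0 dpa spp1 was called at 4 against 0 dpa in WT fins, at -0.71. Of all values of single genes, 2663 kept direction and call, 48 lost the call and 20 gained it. Another 83 changed sign and were called neither in the main fit nor in the alternative concerned.

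Deviations of same-numbered libraries of different groups correlated at r between -0.61 and 0.74 in 45 pairs (median 0.01, 12 pairs over 0.1). For libraries of other numbers r lay between -0.75 and 0.62 in 90 pairs (median -0.01, 19 pairs over 0.1). No general pairing by number was seen. Deviations within a group of 3 sum to 0, so this check cannot exclude that some pools were paired. With a replicate block 3 of 7 SCPP genes were called at 1 against 0 dpa in WT fins, scpp8 dropping out at an adjusted p of 0.0508 by limma, and no other call of the family changed. Over the whole table, KO against WT at 0, 1 and 4 dpa gave 23, 1 and 8 called genes, and over all alternatives other than leaving out 1 library 0 to 96, 0 to 20 and 1 to 20; the average over the times gave 32 and 22 to 58. For 1 and 4 against 0 dpa and 4 against 1 dpa, 6680, 11160 and 6351 genes were called in KO fins, with 3405 to 8386, 6958 to 12898 and 4616 to 7737 over alternatives, and 9154, 12657 and 3138 in WT fins, with 4733 to 10474, 3502 to 12954 and 2432 to 7828. Leaving out 1 library gave 1 to 39, 1 to 3 and 2 to 24 genes for KO against WT at 0, 1 and 4 dpa, lowest without KO replicate 3 at 0 dpa and WT replicate 2 at 4 dpa. For 4 against 1 dpa it gave 3264 to 7389 genes in KO fins, with 3264 without KO replicate 1 at 1 dpa and 3560 without KO replicate 3 at 4 dpa, and 1576 to 4285 in WT fins, with 1576 and 1590 without WT replicates 1 and 2 at 1 dpa and 2044 and 2049 without WT replicates 2 and 3 at 4 dpa. For 1 against 0 dpa in WT fins it gave 5947 without WT replicate 2 at 0 dpa. The other counts over time stayed within 1.5 times.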
